A study of Mus musculus with 22 samples.

Results

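The mitochondrial ribosome proteins were taken as the genes whose symbols start with Mrpl (large subunit) or Mrps (small subunit) followed by a digit, pseudogenes left out. The striatum table held 78 of them among 55327 gene rows, and 77 passed the filter of a mean normalised count above 10, out of 15827 gene rows that passed. The white adipose tissue (WAT) table held 77 among 47628 gene rows, and all 77 passed, out of 17928. In each tissue 48 tested members belonged to the large subunit and 29 to the small subunit. The sets differed by 1 symbol on each side. Mrpl53 had no count in any striatum library and was therefore not tested there. Mrpl58, a factor that releases stalled chains from the ribosome, carries its older symbol Ict1 in the WAT table and was not found there by its symbol.

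RNA from striatum and WAT of C57BL/6J wild-type mice, labelled male and 8 weeks old, was sequenced to ask which genes respond to thyroid hormone (TH). The control libraries came from mice made hypothyroid for 2 weeks with PTU (propylthiouracil, a blocker of TH synthesis), 2 from striatum and 4 from WAT. The treated libraries came from mice given TH, 4 of striatum at 12 h, 4 of striatum at 24 h, 4 of WAT at 6 h and 4 of WAT at 24 h, and their labels give no PTU treatment. For WAT the study lists 2 weeks of PTU in food and a single injection of TH. For striatum it lists no hypothyroidism treatment, although the control libraries are labelled PTU. Nothing in the labels says how the animals or tissue pieces were pooled, so the p-values measure the spread between these libraries.

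Mitochondrial ribosomes translate the few proteins that mitochondrial DNA encodes, which are core subunits of the respiratory chain and of ATP synthase. Their RNAs come from mitochondrial DNA, whereas all of their proteins are encoded in the nucleus and imported. The small subunit reads the messenger RNA and the large subunit joins the amino acids. TH is known as a stimulus of mitochondrial activity and heat production, in adipose tissue among others.

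Striatum libraries held 8.04 to 10.1 M counts and WAT libraries 17.3 to 26.9 M, so values of low members carry more counting error in striatum. Hr and Klf9, which are well-known TH targets, were higher at each time in both tissues. In 6 of 10 striatum libraries (PTU replicate 6, 12 h replicate 1 and all 4 at 24 h) Xist lay between 22070.1 and 33693 normalised counts and the Y-linked Ddx3y at 1.19 or below, against the label of male. In the other 4 Ddx3y lay between 186 and 254. At 24 h, striatum replicate 2 had a summed level of 3794 for 12 markers of striatal projection neurons, against 25065 to 65253 in the other 9 libraries, and 26004 for 10 markers of cortical excitatory neurons, the highest of the 10. In WAT the summed level of 10 skeletal muscle markers ranged from 1038 to 568190 normalised counts across libraries, and that of 7 epididymis markers was 10.5 or lower.

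Normalised counts put each library of a tissue on the scale of its average library, with edgeR's composition factors, and levels are compared between genes per kb of annotated exon. As WAT libraries held more counts, the tissues have different scales, and the size of a level is not comparable between them. Without TH, the 77 tested members spanned 3.97 to 479 normalised counts per kb in striatum (median 75.8) and 46.4 to 1962 in WAT (median 293). The large subunit had a median of 83.6 per kb in striatum and 301 in WAT, and the small subunit 52.9 and 222. In striatum the highest large subunit members per kb were Mrpl34 (479), Mrpl41 (346) and Mrpl10 (327), and the highest small subunit members were Mrps17 (222), Mrps24 (220.4) and Mrps7 (184). Mrps17 and Mrps24 did not differ beyond the spread of their 2 libraries. In WAT the highest were Mrpl12 (1022), Mrpl53 (808) and Mrpl34 (799) of the large subunit, and Mrps21 (1962), Mrps6 (751) and Mrps15 (655) of the small subunit. Mrpl12 belongs to the flexible stalk that recruits translation factors and also binds the mitochondrial RNA polymerase.

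At the low end in striatum stood Mrpl23 (3.97 per kb), Mrpl48 (17.6) and Mrpl21 (25.4) of the large subunit, and Mrps36 (8.86), Mrps18b (13.2) and Mrps35 (13.3) of the small subunit. In WAT they were Mrpl19 (46.4), Mrpl47 (67.8) and Mrpl15 (71.8), and Mrps10 (64.6), Mrps25 (70.2) and Mrps35 (72.5). Over the 77 symbols found in both tables the order of the PTU levels had a Spearman rho of 0.54 between tissues, a description across genes. Some rows of the WAT table, none of them a member, copy another row, and how reads matching several genes were counted there is not given in the sources used here. Mrpl23 had a mean of 18.5 normalised counts in striatum and 605 in WAT, while its pseudogene Mrpl23-ps1 had 346 and 534. Mrps36 had means of 13 and 740.4, and its pseudogene Mrps36-ps1 had 66.3 and 161. Levels of these members, and of Mrpl48, which also has a pseudogene row, are therefore uncertain. Mrpl53 shares exon bases on its own strand with Gm42688, which had a mean of 35.2 in striatum, while Mrpl53 itself had 631 in WAT.

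**Figure D1:**
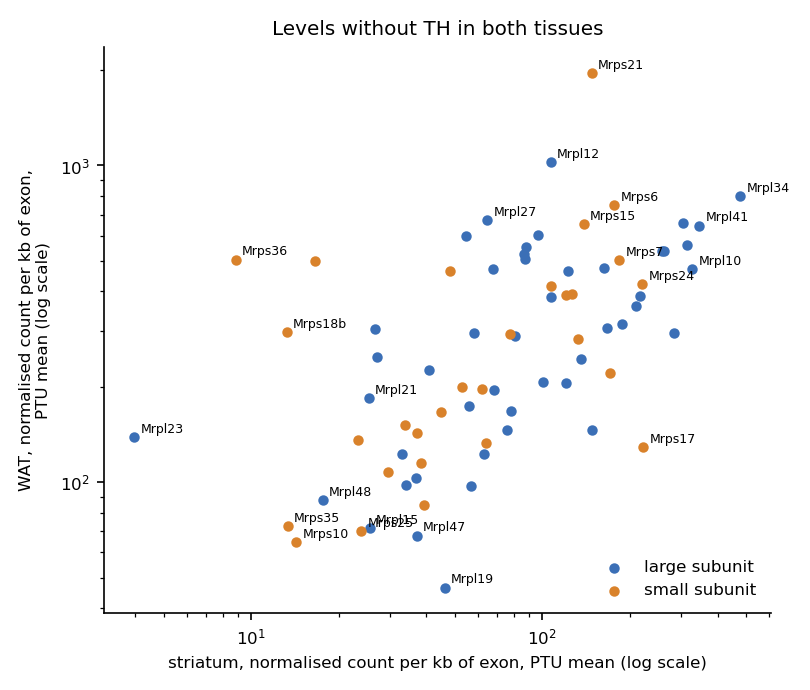
Mean normalised count per kb of exon without TH in striatum (x axis, log scale, 2 libraries) against WAT (y axis, log scale, 4 libraries), 1 point per member with a count in both tissues, coloured by subunit. Mrpl34 is high in both tissues, and Mrpl23 and Mrps36 lie at the low end in striatum with 3.97 and 8.86 per kb.

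The members together took 0.191 to 0.217% of all counts of a striatum library and 0.228 to 0.291% of a WAT library. In WAT the summed large subunit was 34592 ± 3287 (SD, n = 4) normalised counts without TH, 32807 ± 3472 at 6 h and 38463 ± 1531 at 24 h, and the summed small subunit was 19619 ± 2007, 18748 ± 1956 and 21877 ± 1109. The share of counts at 24 h lay between 0.276 and 0.291% in its 4 libraries, above all 4 PTU libraries (0.228 to 0.260%). The summed normalised counts, however, overlapped between these groups. PTU replicate 2 had 37192.6 for the large and 21416.3 for the small subunit, and 24 h replicate 1 had 36473.5 and 20528.2. The ratio of the summed large to the summed small subunit had group means of 1.81 to 1.85 in striatum and 1.75 to 1.76 in WAT. PTU replicate 3 and replicates 1 and 2 at 6 h stood low within WAT, with members' median log2 deviations from the PTU mean of -0.19, -0.13 and -0.23, while the median over all genes deviated by -0.0012, -0.015 and -0.027.

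**Figure D2:**
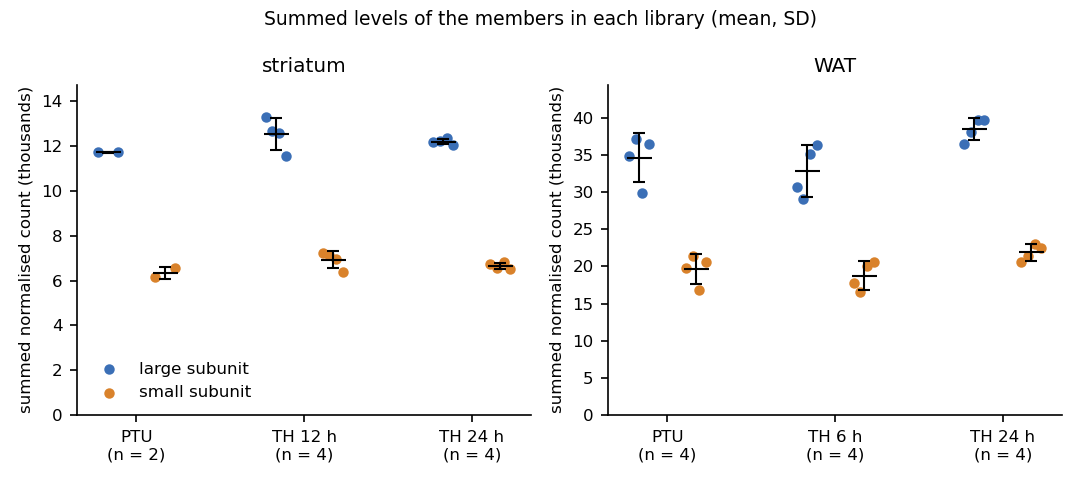
Summed normalised counts (y axis, in units of 1000) of the large and small subunit members in each library of striatum (left) and WAT (right). Points are libraries, dashes and bars are mean and SD. In WAT the large subunit sum was 34592 without TH, 32807 at 6 h and 38463 at 24 h.

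At 24 h, 16 of 77 members had risen and 1 had fallen in WAT (edgeR quasi-likelihood test, Benjamini-Hochberg over all genes tested, called at an adjusted p under 0.05). The share called higher was 20.8% of the members against 7.45% of all genes, that called lower 1.30% against 9.62%, and that called in either direction 22.1% against 17.1%. In all, 54 of 77 had a positive log2 change, with a median of 0.09 against -0.002 over all genes. The size of this median depended on single libraries. Omitting PTU replicate 3, which stood low, brought it down to 0.03, against -0.006 over all genes. Omitting replicate 4 of the same group raised it to 0.16, against 0.012. The rise was modest, between 0.34 and 0.76 on the log2 scale for those called.

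After Mrps2, the largest rises were seen in Mrpl12, Mrpl47 and Mrps27. Mrpl12 had 1902, 1585, 1381 and 1393 normalised counts without TH, 1520.0, 1495, 2033 and 2114 at 6 h and 2498, 2272, 2861 and 2782 at 24 h. All 24 h libraries exceeded all PTU libraries, and the log2 change was 0.73 ± 0.14 (SE, edgeR adjusted p = 0.00469). Mrpl47, related to a bacterial protein at the exit of the peptide tunnel, had 316, 327, 253 and 304 without TH, 372, 368, 359.9 and 441 at 6 h and 428, 406, 493 and 543 at 24 h. The groups at 24 h and without TH did not overlap, and the log2 change was 0.64 ± 0.12 (edgeR adjusted p = 0.00366). Mrps27, a small subunit protein of the pentatricopeptide repeat family without a bacterial relative, had 438, 334, 342 and 285 without TH, 375, 345, 376 and 419.6 at 6 h and 535, 508, 581 and 561 at 24 h. Again the 24 h libraries stood apart, with a log2 change of 0.64 ± 0.12 (edgeR adjusted p = 0.0039).

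When libraries were omitted singly, those 3 and a further 6 members passed the test in all 12 fits, 9 of the 17 in all. Of these 9, Mrpl35 missed the test with the epithelium markers as a covariate (edgeR adjusted p = 0.0594). Mrpl15, a core protein of the large subunit, had 635, 615, 535 and 652 without TH and 811, 871, 861 and 862 at 24 h (log2 change 0.48 ± 0.09). Mrps5, a small subunit protein with a bacterial relative, had 568, 554, 552 and 557 and 726, 674, 799 and 758 (log2 change 0.41 ± 0.08). The PTU libraries of Mrps5 lay close together and none reached a 24 h library. Mrpl55, a large subunit protein without a bacterial relative, had 648, 625, 485 and 542 without TH and 799.7, 793, 825 and 852 at 24 h. Mrps35, likewise without a bacterial relative, had 662, 639, 559 and 642 and 873, 787, 937 and 953. In both the lowest 24 h library was above the highest PTU library. Mrps18b, 1 of 3 mammalian relatives of a single bacterial protein, had 758, 578, 546 and 600.1 without TH and 837, 887, 864 and 952 at 24 h. Mrpl35, with a bacterial relative, had 633, 659.6, 521 and 633 and 749, 839, 825 and 841. These groups did not overlap either. Mrps35 changed by 0.50 ± 0.10, Mrps18b by 0.51 ± 0.12, Mrpl55 by 0.51 ± 0.11 and Mrpl35 by 0.41 ± 0.10 on the log2 scale, with adjusted p between 0.00416 and 0.0183.

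The remaining 7 rises each missed the test when at least 1 library was left out, although Mrpl34 passed it under all 9 other alternatives. Mrps2 had the largest log2 change, 0.76 ± 0.19 (edgeR adjusted p = 0.0188), but its groups overlapped, with 944, 539.9, 563 and 539.8 without TH and 1051, 924, 1382 and 1028 at 24 h. Its high PTU library was replicate 1. Mrpl4, Mrpl34, Mrpl38, Mrps11, Mrps23 and Mrps36 rose by 0.34 to 0.54 on the log2 scale, and in none of them did the groups overlap. Mrpl34, the highest member per kb in striatum, had 501, 492, 402 and 544 without TH, 428, 374, 560.1 and 540.3 at 6 h and 642, 629, 839 and 706 at 24 h. Mrpl4 had 801, 836, 717 and 748 without TH and 933, 995, 1085 and 1042 at 24 h. Mrps11, which shares exon bases on the opposite strand with Mrpl46, had 327, 306, 265 and 256 and 384, 332, 429.8 and 369, while Mrpl46 changed by 0.19 ± 0.10 and was not called. Mrpl38 and Mrps23, both without a bacterial relative, changed by 0.43 ± 0.12 and 0.34 ± 0.10. Mrps36 had 611, 684, 503 and 773 and 817, 896, 1104 and 874. Mrps36 shares its name with the ribosome, but its protein was later assigned to the 2-oxoglutarate dehydrogenase complex, and its pseudogene row Mrps36-ps1 changed by 0.58. The called member that fell was Mrpl49, with 981, 917, 801 and 783 without TH and 649, 646, 744 and 691 at 24 h (log2 change -0.35 ± 0.10, edgeR adjusted p = 0.0265). Mrpl49 shares exon bases on the opposite strand with Syvn1, which also fell by 0.49, and the part of shared reads was not tested. Over the 45 members with no exon bases shared with another gene, 11 were called higher and none lower (an alternative chosen after the data were seen). The shares over all genes were 7.45% higher and 9.62% lower.

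**Figure D3:**
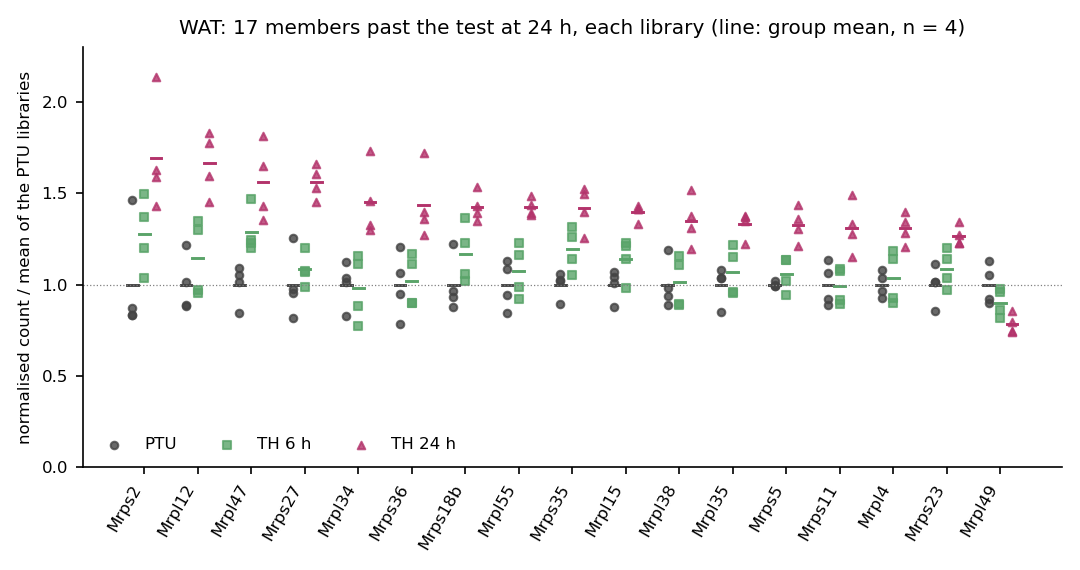
Normalised count of each of the 17 members called at 24 h in WAT, divided by the mean of its 4 PTU libraries (y axis), for PTU, 6 h and 24 h libraries (points), with group means (lines). Mrps2, Mrpl12 and Mrpl47 rise most at 24 h and Mrpl49 falls.

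Both subunits took part. Of 48 large subunit members 8 were higher (16.7%) and 1 lower, and of 29 small subunit members 8 were higher (27.6%) and none lower. Over all genes 7.45% were called higher and 9.62% lower. The median log2 change was 0.08 for the large and 0.10 for the small subunit. Their difference, -0.02, was within the spread of that difference between libraries of a group (pooled SD 0.035) and ran from -0.09 to 0.01 when 1 library was left out. At 6 h the difference was -0.06, larger than that spread, which leaves out the error of the PTU mean. By ancestry, 10 of 47 members with a bacterial relative were higher, and 5 of 29 without one were higher with 1 lower. In all, 22 of 77 members (28.6%) had groups that did not overlap, against 19.3% of all genes.

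Other cell type markers moved in the same libraries, where 7.45% of all genes were called higher and 9.62% lower. The summed level of 8 brown adipocyte markers was 1886 to 3720 normalised counts without TH and 8572 to 24033 at 24 h, and 5 of the 8 (Ucp1, Cox8b, Cox7a1, Otop1 and Cpt1b) were called higher. Of 8 adipocyte markers 5 were called lower, with a sum of 418908 to 527842 without TH and 264049 to 368305 at 24 h. Of 8 stratified epithelium markers 2 were called lower, with a sum of 285 to 649.7 without TH and 85.2 to 149 at 24 h, and of 8 leukocyte markers 1 was higher. Brown adipocytes are rich in mitochondria, and the part of these cells in the members' rise was not tested. A change in the number of cells of a type and a change of RNA per cell cannot be told apart in these bulk samples. With the epithelium markers as a covariate 10 members were called, and with the muscle markers 14.

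At 6 h, 1 of 77 members was called, Mrps6, which was lower. The share called was 1.30% against 7.23% of all genes, and the share lower 1.30% against 3.05%. Groups did not overlap in 3 members (3.90%) against 13.9% of all genes, and 50 of 77 changes were negative with a median of -0.06 against -0.03. Mrps6 had 709, 1731, 998 and 1167 normalised counts without TH and 665, 519, 670.4 and 663 at 6 h (log2 change -0.87 ± 0.22, edgeR adjusted p = 0.036). The 6 h libraries lay below all PTU libraries, which themselves spread widely. Mrps6 shares exon bases on its own strand with Slc5a3, a myo-inositol transporter gene, which changed by -1.73 (edgeR adjusted p = 0.0269), and reads of the shared bases cannot be assigned to either. Mrps6 was called in 5 of 12 fits that left out 1 library, and its edgeR adjusted p was 0.0626 with the replicate block, 0.0754 with the 2 groups alone and 0.116 with the epithelium markers as a covariate. The next smallest p belonged to Mrpl17 (-0.30 ± 0.09, edgeR adjusted p = 0.0709) and Mrpl47 (0.36 ± 0.12, edgeR adjusted p = 0.0881).

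From 6 h to 24 h, 6 members rose and none fell, 7.79% against 3.07% of all genes higher and 7.41% called in either direction. The change was positive in 70 of 77, with a median of 0.17 against 0.01 over all genes, and groups did not overlap in 26 (33.8%) against 21.8%. The large and small subunit had medians of 0.16 and 0.21, and 4 and 2 calls. Mrpl42, without a bacterial relative, had 1221, 1309, 1701 and 1699.9 at 6 h and 2304, 2492, 2583 and 2439 at 24 h (log2 change 0.73 ± 0.16, edgeR adjusted p = 0.0209). It stood at 1981, 1724, 1176 and 2068 without TH, so its 24 h libraries were above both other groups. The others were Mrps27 (0.53 ± 0.12), Mrpl34 (0.57 ± 0.15), Mrps5 (0.33 ± 0.08), Mrpl12 (0.54 ± 0.14) and Mrpl55 (0.41 ± 0.11). Replicates 1 and 2 at 6 h had low median deviations over the members, although Mrpl47 was not low in them, and leaving out either left no call. With the epithelium or the muscle markers as a covariate no member was called, and the members' median change was 0.18 and 0.13. Of 8 epithelium markers 6 were lower at 24 h than at 6 h. The summed level of 10 muscle markers was 1038 to 104415 normalised counts at 6 h and 42172 to 312105 at 24 h, and none of them was called. The part of muscle tissue in the members' change was not tested.

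At 12 h, 1 of 77 members was called, Mrps12, which was higher. The share called was 1.30% against 0.96% of all genes, and 0.733% of all genes were higher. Mrps12, a protein of the decoding centre, had 139 and 137 normalised counts without TH, 279, 239, 226 and 201 at 12 h and 152, 185, 173 and 174 at 24 h (12 h log2 change 0.78 ± 0.14, edgeR adjusted p = 0.0363). All 12 h libraries exceeded both PTU libraries. It was called in 3 of 10 fits that left out 1 library, and with Ddx3y as a covariate its change was 0.81 (edgeR adjusted p = 0.0461). The next smallest p belonged to Mrpl36 (0.43 ± 0.10, edgeR adjusted p = 0.066) and Mrpl33 (-0.52 ± 0.12, edgeR adjusted p = 0.0697), large subunit proteins with bacterial relatives. Mrpl36 had 318 and 342 without TH, 453, 478, 443 and 404 at 12 h and 381, 389, 429 and 382 at 24 h. Mrpl33 had 283 and 258 without TH, 223, 176, 191 and 162 at 12 h and 239, 242, 249 and 228 at 24 h. The 12 h libraries lay above both PTU libraries for Mrpl36 and below both for Mrpl33. Mrpl36 shares exon bases on the opposite strand with Ndufs6, which changed by -0.63 (edgeR adjusted p = 0.101). Mrpl33 shares exon bases on its own strand with Gm43809, which had a mean of 0 in striatum. The part of shared reads was not tested.

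Over all members 51 of 77 changes at 12 h were positive, with a median of 0.09 against 0.01 over all genes. Groups did not overlap in 25 members (32.5%) against 36.4% of all genes. The median was 0.07 for the large and 0.16 for the small subunit, a difference of -0.08. This exceeded the spread between libraries of a group (pooled SD 0.022), but that SD leaves out the error of the PTU mean of 2 libraries. Without PTU replicate 3 the difference was -0.01. It was -0.01 when Mrps30 and Mrps18a, whose proteins sit in the large subunit, were counted there and Mrps36 was left out (chosen after the data were seen). The summed levels of projection neuron markers were 43204 and 62442 without TH and 25065 to 40474 at 12 h, and those of cortical neuron markers 4475 and 8369 against 10396 to 16127. Their part in the changes of the members was not tested.

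At 24 h no member was called (edgeR, 5 at an unadjusted p under 0.05, and none by DESeq2), against 0.348% of all genes. Groups did not overlap in 21 members (27.3%) against 18.2%. The smallest p belonged to Mrpl34 (0.29 ± 0.11, edgeR adjusted p = 0.411), Mrpl36 (0.26 ± 0.10) and Mrps34 (0.25 ± 0.10). Mrpl34 had 289 and 293 without TH and 328, 349, 392 and 357 at 24 h, with a 95% interval of the log2 change of 0.06 to 0.53. Mrps34, a small subunit protein without a bacterial relative, had 267 and 254 and 289, 307, 307 and 339. The 24 h libraries exceeded both PTU libraries in these 3 members. Mrps34 shares exon bases on its own strand with Nme3, which had a mean of 0 in striatum. On the opposite strand it shares them with Mapk8ip3, which changed by 0.07. Over all members the median change was 0.06 against 0.02 over all genes, with 0.03 for the large and 0.09 for the small subunit. The difference of -0.06 also exceeded the spread (pooled SD 0.022), which leaves out the error of the PTU mean. Without PTU replicate 3 the difference was -0.01. All 4 libraries at 24 h had high Xist, whereas PTU replicate 3 had high Ddx3y. With Ddx3y as a covariate the median change of the members was 0.016, against 0.021 over all genes. Without PTU replicate 3 it was 0.012, against 0.0085. From 12 h to 24 h no member was called by edgeR (0% of all genes, 6 members at an unadjusted p under 0.05) and 1, Mrps12, by DESeq2. Groups did not overlap in 6 members (7.79%) against 8.30% of all genes. The smallest p belonged to Mrps12 (-0.47 ± 0.11, edgeR adjusted p = 0.145), Mrps15 (-0.36 ± 0.09) and Mrps11 (-0.35 ± 0.09), which bind the small rRNA. Mrps15 had 299, 270.1, 280.1 and 278 at 12 h and 212, 206, 237 and 225 at 24 h. Mrps11 had 194, 175, 196 and 186 and 153, 138, 162 and 134. All 3 were lower in each 24 h library than in each 12 h library. Of the 12 h libraries only replicate 1 had high Xist, against all 4 at 24 h. With Ddx3y as a covariate the edgeR adjusted p was 0.306 for Mrps12, 0.32 for Mrps15 and 0.523 for Mrps11.

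**Figure D4:**
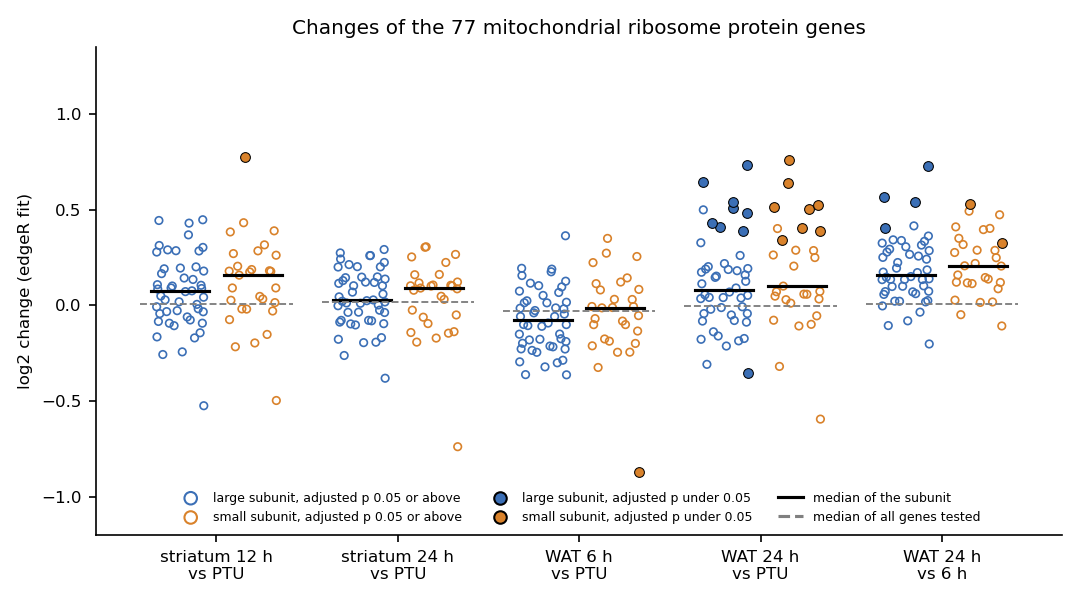
Fitted log2 change (y axis) of the 77 members in 5 comparisons (x axis), split into large (blue) and small subunit (orange). Filled points are past the test, black lines are subunit medians and dashed lines the median of all genes. In WAT at 24 h 17 points are filled, and in striatum at 24 h none.

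The 24 h response differed between tissues in 1 member (1.30%), against 4.84% of 13085 genes in that fit. Mrpl47 rose more in WAT, with a difference of 0.81 ± 0.18 in log2 change (edgeR interaction term, adjusted p = 0.0103). In striatum it had 166 and 161 without TH and 162, 132, 151 and 163 at 24 h, a log2 change of -0.10 ± 0.13 with a 95% interval of -0.39 to 0.18. Leaving out either striatum PTU library left no call. Of the 77 members in that fit 14 had an unadjusted p under 0.05, and the median difference was 0.19 against 0.01 over all genes. These 77 include Mrpl58, joined through its older symbol Ict1, and leave out Mrpl53. Mrpl47 shares exon bases on the opposite strand with Actl6a and Ndufb5, which changed by 0.09 and 0.11 in WAT at 24 h and were not called.

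**Figure D5:**
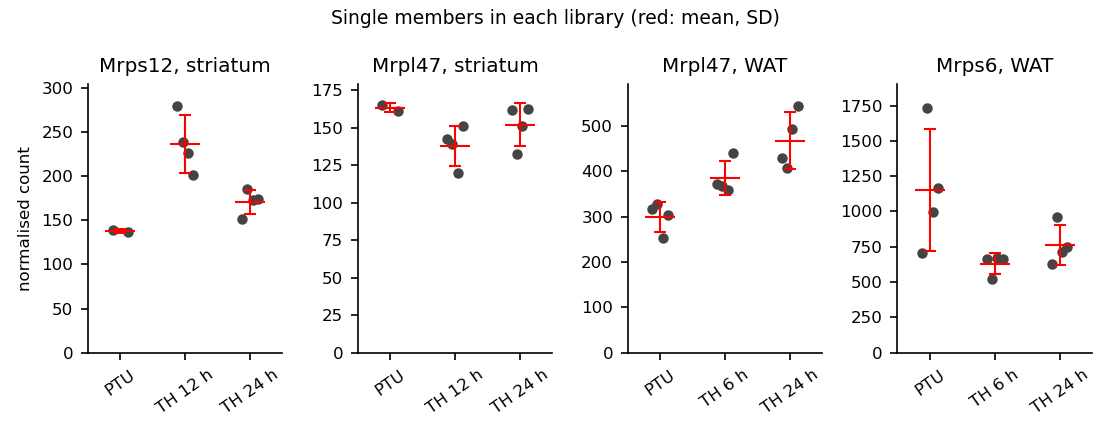
Normalised count of Mrps12 in striatum, Mrpl47 in striatum and in WAT, and Mrps6 in WAT, in each library (points), with mean and SD (red). Mrps12 is highest at 12 h, the 24 h libraries of Mrpl47 lie above PTU in WAT and overlap PTU in striatum, and the PTU libraries of Mrps6 spread widely.

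In WAT at 24 h, where 7.45% of all genes were called higher and 17.1% in either direction, 1 (Ptcd3) of a list of 7 ribosome proteins was higher. This list holds 5 proteins with other symbols, the member Mrpl57, and Mrpl58 (Ict1). Of 16 tested translation factors 4 were higher, Lrpprc (0.64 ± 0.10), Taco1 (0.57 ± 0.12), Gfm1 (0.54 ± 0.13) and Oxa1l (0.39 ± 0.11), and Mss51 was lower. Lrpprc stabilises mitochondrial messenger RNAs and Gfm1 moves the ribosome along them. Mss51 ranged from 18 to 606 across PTU libraries, with the high values in the 2 that had the most muscle markers. Of 26 genes of ribosome assembly and rRNA modification 6 were higher, Rnmtl1 (0.89 ± 0.16), Trmt2b (0.64 ± 0.09), Mrm1 (0.53 ± 0.12), Fastkd2 (0.44 ± 0.11), Nsun4 (0.41 ± 0.10) and Noa1 (0.29 ± 0.08). Rnmtl1, Mrm1 and Nsun4 are known to methylate mitochondrial rRNA. Of 19 aminoacyl-tRNA synthetases and amidotransferase subunits 2 were higher, Qrsl1 (0.67 ± 0.13) and Fars2 (0.37 ± 0.11). Of 11 genes of mitochondrial DNA and transcription 3 were higher, the RNA polymerase Polrmt (0.54 ± 0.13), the helicase Peo1 (0.49 ± 0.15) and Tfb2m (0.28 ± 0.09).

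Of 10 regulators of mitochondrial biogenesis 5 were higher at both times, where 4.18% of all genes were called higher at 6 h and 7.45% at 24 h. The coactivator Ppargc1a had 61.5, 68.2, 90.2 and 77.5 without TH, 583, 602, 687 and 689 at 6 h and 281, 504, 370.4 and 393 at 24 h, log2 changes of 3.10 ± 0.18 and 2.38 ± 0.18. At 24 h Myc changed by 1.23 ± 0.18, Ppargc1b by 0.93 ± 0.25, Pprc1 by 0.75 ± 0.14 and Esrra by 0.54 ± 0.14. Nrf1 and Gabpa, whose proteins bind promoters of many mitochondrial genes, changed by 0.13 ± 0.10 and -0.06 ± 0.10 and were not called. For Ppargc1a the TH libraries were all above the PTU libraries. Ppargc1a was lower at 24 h than at 6 h (-0.73 ± 0.16, edgeR adjusted p = 0.0199), between the times at which 70 of 77 members had a positive change. Of 13 mitochondrially encoded proteins none was higher at 24 h and 2 were lower, mt-Nd3 (-0.57 ± 0.18) and mt-Nd6 (-0.91 ± 0.25), where 9.62% of all genes were called lower. At 6 h calls were Qrsl1, Trmt2b, Polrmt and Polg, all higher. In striatum none of these lists had a call at any time.

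The 78 members of the striatum table lie on 17 chromosomes, 11 of them on chromosome 11 (GENCODE M21, GRCm38). Mrps12 lies at chr7:28739641-28741820, Mrpl47 at chr3:32725397-32737605, Mrpl49 at chr19:6053622-6057785 and Mrps18b at chr17:35910379-35916389, all on the minus strand. Mrpl12 lies at chr11:120484613-120489065, Mrps27 at chr13:99344786-99415562 and Mrps6 at chr16:92058270-92112227, on the plus strand. Of the 78, 19 (24.4%) start within 1000 bases of an opposite-strand protein-coding start, against 7.23% of 21951 protein-coding genes, and 33 share exon bases with another gene, 28 on the opposite strand. Among the 19 pairs, 17 partners were tested in WAT at 24 h, where 17.1% of all genes were called. Of the pairs, 4 members and 4 partners were called, and in 2 pairs both were, Mrps27 with Ptcd2 (0.53) and Mrps18b with Ppp1r10 (0.62). Sars2, which starts 172 bases from Mrps12, changed by 0.07 in striatum at 12 h (edgeR adjusted p = 0.905).

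RefSeq promoter windows (GRCm38.p6, 250 bases before to 50 after the start) were given for 69 members, 75 windows. On either strand GCGCATGCG (NRF1) stood in 9.33% of them against 1.75% of all 32851 windows, CCGGAAGT (the ETS factor GABP) in 16% against 3.89%, AAGATGGCG (YY1) in 10.7% against 1.4% and TGACGTCA (CRE) in 2.67% against 1.79%. The hormone receptor half-site AGGTCA stood in 14.7% against 16.3%, and as a direct repeat spaced by 4 bases in none against 0.0152%. As only 5 of all windows held this exact repeat, its absence from 75 windows says nothing about the members. The study also assigns binding sites much farther from the start than these windows reach. The median GC content was 58.7% against 52.7%. The 250 bases before the start of 3 members are shown because they cover the motifs and the head-to-head pairs, with a motif in capitals. Mrps27 (chr13:99344536-99344785, plus strand) holds an ETS match, Mrps18b (chr17:35916441-35916690, minus strand) an NRF1 match, and Mrps12 (chr7:28741822-28742071, minus strand) none of the letters searched.
Mrps27: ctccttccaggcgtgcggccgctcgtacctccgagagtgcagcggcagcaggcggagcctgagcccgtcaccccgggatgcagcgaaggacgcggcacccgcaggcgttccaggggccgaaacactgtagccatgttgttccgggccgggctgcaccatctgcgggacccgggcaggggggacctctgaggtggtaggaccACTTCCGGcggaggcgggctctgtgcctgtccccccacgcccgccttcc
Mrps18b: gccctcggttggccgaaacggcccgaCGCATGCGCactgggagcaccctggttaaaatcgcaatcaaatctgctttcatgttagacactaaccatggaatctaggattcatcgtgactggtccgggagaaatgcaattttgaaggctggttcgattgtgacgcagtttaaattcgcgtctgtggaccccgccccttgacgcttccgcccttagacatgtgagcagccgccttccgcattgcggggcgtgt
Mrps12: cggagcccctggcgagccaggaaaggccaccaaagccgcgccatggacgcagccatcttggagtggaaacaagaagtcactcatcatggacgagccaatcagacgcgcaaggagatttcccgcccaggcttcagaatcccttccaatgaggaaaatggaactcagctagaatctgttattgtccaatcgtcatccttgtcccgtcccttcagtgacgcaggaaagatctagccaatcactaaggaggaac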

How the data were processed

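The authors deposited 2 tables of raw read counts per gene, 1 for striatum and 1 for WAT. Per the submitters' processing notes reads were aligned with Bowtie2 2.2.6.2 to mm10, and per the study's methods low-quality alignments were removed and genes were counted with htseq-count. The WAT table uses older symbols than the striatum table, and 87 of its gene rows (6.09% of counts, no member) copy another row. Symbols that a spreadsheet had turned into dates were dropped (14 rows in striatum, 15 in WAT).

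Tests were run per tissue on genes whose normalised counts averaged above 10, all groups in 1 fit, with edgeR 4.0.16 (TMM, quasi-likelihood test, Benjamini-Hochberg over all genes, R 4.3.3, limma 3.58.1). SE and intervals come from that fit, tested first on simulated data. Alternatives were DESeq2 1.42.0, other factors and filters, omitted libraries, a replicate block and marker covariates. Named were all members past the test and, where under 6 passed, the 3 of smallest p, and the 3 highest and lowest per kb of each subunit. Members and lists were chosen with earlier results of these data known. Exon lengths came from GENCODE M21.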

Additional observations from a re-analysis of the deposited data

Results flagged for a closer look

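By Dixon's test 72 groups of 4 libraries were examined, for the named members and for the summed level of each subunit and their ratio. In 5 of them, all for named members, a library stood far from the other 3. Chance gives this in about 1 in 20 groups. In striatum at 24 h, replicate 3 stood high for Mrpl36, at 429 normalised counts. In WAT at 6 h, replicate 2 stood low for Mrps6, at 519, and replicate 4 stood high for Mrpl47, at 441. In WAT at 24 h, replicate 1 stood low for Mrpl15, at 811, which is still above every PTU library. In WAT without TH, replicate 1 stood high for Mrps2, at 944, and it is the library that made the groups of Mrps2 overlap. The 24 h response of Mrpl47 differed between WAT and striatum by 0.81 on the log2 scale, by the interaction term.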

How the results depend on the processing

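No named member changed the sign of its log2 change under the alternatives run. Called members in striatum at 12 h were 1, but 4 with DESeq2, 5 with the 2 groups alone and 0 to 6 when 1 library was left out (0 without PTU replicate 3 or 6, 12 h replicate 2 or 3, or 24 h replicate 3 or 4, and 6 without 24 h replicate 2). From 12 h to 24 h there were 0, and 1 with DESeq2. In WAT at 6 h there was 1, but 3 with DESeq2, 0 with the 2 groups alone, 0 with epithelium markers as a covariate and 0 to 5 without 1 library. In WAT at 24 h there were 17, but 10 with the epithelium covariate and 11 among the 45 members sharing no exon bases. Leaving out 1 library gave 10 to 20 (10 without 24 h replicate 3, 11 without PTU replicate 2 or 3 or 24 h replicate 4). From 6 h to 24 h there were 6, but 14 with DESeq2, 16 with the 2 groups alone, 0 with the muscle or the epithelium covariate and 0 to 10 without 1 library (0 without 6 h replicate 1 or 2 or 24 h replicate 3, 10 without PTU replicate 1, 3 or 4). The tissue difference held 1, and 0 to 4 without 1 library (0 without either striatum PTU library). The cause was not tested. With a replicate block the WAT counts were 0 at 6 h, 13 at 24 h and 1 (Mrpl42) from 6 h to 24 h, and striatum from 12 h to 24 h stayed at 0. Libraries that share a number had correlations of either sign across genes (r from -0.39 to 0.26 over 6 striatum pairs and -0.47 to 0.38 over 12 WAT pairs). With so few libraries per group these values cannot decide whether the numbers pair them. For the striatum comparisons with PTU, no paired analysis was possible because those groups share fewer than 2 numbers. The median difference of large minus small subunit at 12 h in striatum, -0.084, was -0.010 with Mrps30 and Mrps18a moved and Mrps36 left out, and -0.089 to -0.012 without 1 library. At 24 h it was -0.064 (-0.075 to -0.014 without 1 library), and from 12 h to 24 h 0.051 (0.016 to 0.069, and 0.026 without shared exon bases). In WAT it was -0.062 at 6 h (-0.073 to -0.024), -0.020 at 24 h (-0.090 to 0.011) and -0.046 from 6 h to 24 h (-0.066 to -0.020). The count without shared exon bases and the moved subunits were chosen after seeing the data. Striatum had 2 PTU libraries and fewer counts per library than WAT, and the part of either in its number of calls was not tested.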

Other observations

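Transcripts of mitochondrial DNA took 18.3 to 20% of counts in WAT libraries without TH, 17.1 to 20.3% at 6 h and 16.9 to 18.7% at 24 h, and 14 to 18.3% in striatum libraries. The WAT groups overlapped. The 13 mitochondrially encoded proteins had a median log2 change of -0.18 in WAT at 24 h, and neither mitochondrial rRNA was called there.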
